A study of Homo sapiens with 4 samples.

Results

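R3HDM1 and R3HDM2 are paralogous genes, and IGF2BP3 RNA immunoprecipitation (RIP) peaks on their mRNAs were compared exon by exon. R3HDM2 was chosen by its highest fold enrichment, one of the strongest among target genes, and R3HDM1 as its paralog. A peak belonged to a gene when its summit, the base of strongest enrichment within the peak, lay in a GENCODE 44 exon of that gene. By this rule the 2 genes held 44 of the 42720 exonic peaks of replicate 1 and 44 of the 41066 exonic peaks of replicate 2. The study precipitated IGF2BP3 with anti-IGF2BP3 from lysates of OE-19 cells, a widely used human line derived from an adenocarcinoma of the esophagogastric junction, and sequenced the recovered RNA beside RNA of the input. The series has 4 samples, 2 IGF2BP3.RIP replicates and 2 IGF2BP3.RIP-Input replicates, all from OE-19 cells without any other treatment named. Fixation with UV light is given in the sample labels, whereas the RIP methods of the study name no UV step. Input values were not analysed here. The members were selected on the same peaks that are described below and no control list was used, so all values are given as descriptions with no test.

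IGF2BP3 is an RNA-binding protein with RRM and KH domains that binds mRNAs, reads N6-methyladenosine (m6A) in them and is known to stabilize its targets. R3HDM1 and R3HDM2 encode large proteins that share an R3H domain, a fold that binds single-stranded nucleic acids and is named after a conserved arginine and histidine. An R3HDM1 intron also hosts the gene of the microRNA miR-128-1.

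R3HDM1 (ENSG00000048991.18) lies on chr2:135531455-135725270 on the plus strand of GRCh38, and its canonical mRNA has 27 exons and 4781 nt, of which 3405 nt are coding. R3HDM2 (ENSG00000179912.21) lies on chr12:57253762-57431043 on the minus strand, and its canonical mRNA has 24 exons and 4411 nt, of which 2973 nt are coding. A readthrough gene (ENSG00000258830.1, chr12:57249609-57296484, minus strand) joins R3HDM2 exons to the neighbouring STAC3 and overlaps exons 9, 10 and 13 to 23 of R3HDM2. The encoded proteins have 1134 and 990 residues, and 56.2% of the 972 aligned residues were identical. The R3H signature, an arginine and a histidine separated by any 3 residues, was found at aligned positions, residue 200 of R3HDM1 and residue 201 of R3HDM2, in exon 9 of both. This short pattern also occurs at residues 57, 238 and 548 of R3HDM2, without an aligned match in R3HDM1.

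Aligning the translated sequences paired 22 coding exons, which were all 22 coding exons of R3HDM2 and all of the 25 of R3HDM1 except exons 13, 15 and 17. Exons 19, 21 and 22 of R3HDM2, among those with its highest folds, and exon 26 of R3HDM1, with its highest mean fold, are shown with their partners, and the last pair is shown because its R3HDM2 exon is rare among annotated transcripts. Each is given 5′ to 3′ on the mRNA strand as GENCODE has it, and capitals mark bases identical to the paired exon in an alignment of the pair.
R3HDM1 exon 22, chr2:135709433-135709536 (+ strand): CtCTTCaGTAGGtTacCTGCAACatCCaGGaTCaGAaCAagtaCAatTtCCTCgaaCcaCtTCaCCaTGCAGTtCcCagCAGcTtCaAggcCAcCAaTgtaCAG
R3HDM2 exon 19, chr12:57266731-57266831 (- strand): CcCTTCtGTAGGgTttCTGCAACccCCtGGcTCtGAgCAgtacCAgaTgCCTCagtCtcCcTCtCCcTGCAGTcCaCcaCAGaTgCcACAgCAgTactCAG
R3HDM1 exon 24, chr2:135715550-135715694 (+ strand): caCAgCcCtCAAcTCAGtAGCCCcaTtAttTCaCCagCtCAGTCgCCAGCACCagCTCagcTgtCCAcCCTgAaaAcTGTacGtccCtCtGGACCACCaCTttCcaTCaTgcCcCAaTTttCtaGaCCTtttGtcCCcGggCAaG
R3HDM2 exon 21, chr12:57257990-57258137 (- strand): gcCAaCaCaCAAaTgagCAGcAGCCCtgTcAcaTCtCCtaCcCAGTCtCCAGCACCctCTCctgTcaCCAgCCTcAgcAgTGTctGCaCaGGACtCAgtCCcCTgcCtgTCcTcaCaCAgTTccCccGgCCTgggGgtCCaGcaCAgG
R3HDM1 exon 25, chr2:135721924-135722006 (+ strand): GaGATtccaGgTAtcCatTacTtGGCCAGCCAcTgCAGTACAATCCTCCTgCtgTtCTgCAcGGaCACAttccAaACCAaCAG
R3HDM2 exon 22, chr12:57256414-57256511 (- strand): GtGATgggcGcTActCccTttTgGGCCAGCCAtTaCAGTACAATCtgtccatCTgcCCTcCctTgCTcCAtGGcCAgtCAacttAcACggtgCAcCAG
R3HDM1 exon 26, chr2:135722469-135722553 (+ strand): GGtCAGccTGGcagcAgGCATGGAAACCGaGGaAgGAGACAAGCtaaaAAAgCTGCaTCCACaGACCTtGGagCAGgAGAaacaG
R3HDM2 exon 23, chr12:57255990-57256074 (- strand): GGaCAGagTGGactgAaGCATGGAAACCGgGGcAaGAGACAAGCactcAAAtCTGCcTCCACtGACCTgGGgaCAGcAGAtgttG
R3HDM1 exon 11, chr2:135636088-135636183 (+ strand): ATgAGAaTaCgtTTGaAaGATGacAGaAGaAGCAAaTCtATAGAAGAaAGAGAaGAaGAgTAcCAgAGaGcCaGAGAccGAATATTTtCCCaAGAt
R3HDM2 exon 11, chr12:57292572-57292667 (- strand): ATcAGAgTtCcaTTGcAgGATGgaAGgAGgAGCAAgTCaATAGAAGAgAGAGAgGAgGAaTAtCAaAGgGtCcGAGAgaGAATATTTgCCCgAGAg
The longest run of bases shared by the canonical mRNAs was 20 nt, shorter than the 150 bp reads. Identical bases made up 85 of 148 nt of R3HDM2 exon 21, 55 of 98 nt of exon 22, 59 of 85 nt of exon 23 and 69 of 96 nt of exon 11.

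Peaks were spread along both mRNAs from the first exon to the last, though they did not cover every exon or base. R3HDM1 carried 22 peaks in the first list and 20 in the second, with a mean of 21 ± 1.41 (SD, n = 2). R3HDM2 had 22 and 24 peaks, a mean of 23 ± 1.41 (SD, n = 2). The median gene with exonic summits in both replicates, called a target from here on, had 5 peaks in each. Targets made up 5619 of 20033 protein-coding genes, or 28%. Per kb of mRNA, R3HDM1 had 4.60 and 4.18 peaks and R3HDM2 had 4.99 and 5.44, whereas the target medians were 1.18 and 1.12. By the mean over replicates, R3HDM2 ranked 38th and R3HDM1 88th of the 5619 targets in peaks per kb.

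The fold enrichment is the ratio of RIP pileup to local background at the summit, as given by the authors' peak caller. The highest fold in R3HDM1 was 7.51 in replicate 1, in exon 14, and 7.67 in replicate 2, in exon 26. In R3HDM2 it was 10.1 in replicate 1, in exon 21, and 10.2 in replicate 2, in exon 19, and the latter was the highest fold of the whole replicate 2 list. The target medians of the highest fold were 3.64 and 3.51, and both members exceeded a fold of 5 in both replicates, which 8.36% of targets did. By the mean of the replicates, R3HDM2 ranked 2nd, level with the readthrough gene, and R3HDM1 45th. The gap between the members was smaller for their typical peak. The median fold was 4.40 and 4.86 in R3HDM1 and 5.04 and 4.39 in R3HDM2, so that R3HDM2 was the higher in replicate 1 and R3HDM1 the higher in replicate 2.

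**Figure D1:**
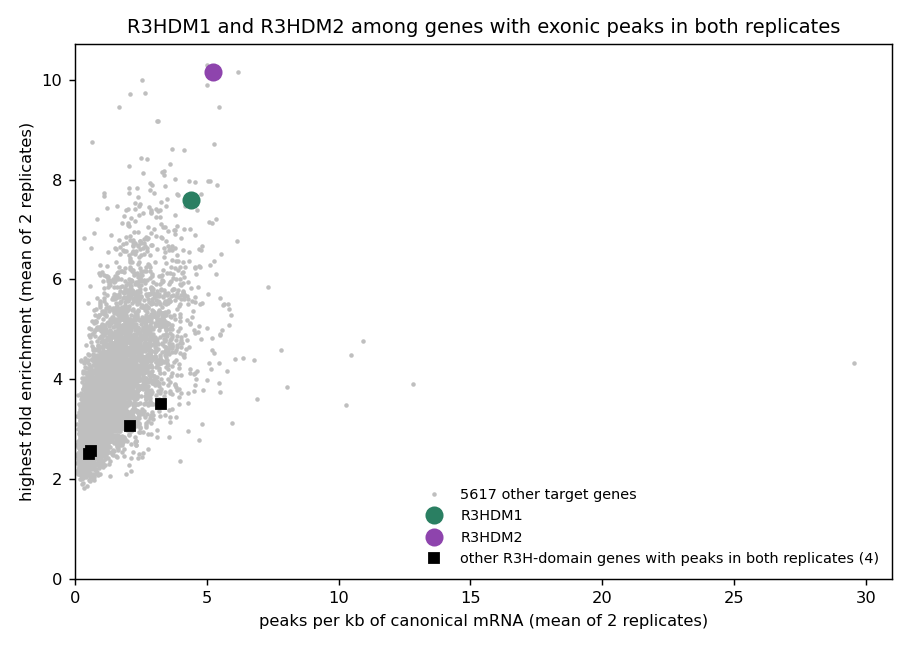
Each point is 1 gene with exonic summits in both replicates, placed by its peaks per kb of canonical mRNA and its highest fold enrichment, both as means of 2 replicates. R3HDM2 (5.21 peaks per kb, highest fold 10.2) and R3HDM1 (4.39 peaks per kb, highest fold 7.59) lie toward the upper edge, and the 4 other R3H-domain genes with peaks lie lower.

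The caller's q, its p corrected for multiple testing, was at most 0.05 for 11 R3HDM1 peaks in replicate 1 and 15 in replicate 2. In R3HDM2 it was so for 13 and 10 peaks. Among all exonic peaks the share was 10.1% in replicate 1 and 7.7% in replicate 2, against 50% and 75.0% in R3HDM1 and 59.1% and 41.7% in R3HDM2. Having such a peak in both replicates was shared with 17.6% of targets, but in the mean number of them R3HDM1 ranked 5th and R3HDM2 11th of 5619. Several weak peaks stood beside these, with a q of 1 for 3 and 1 peaks of R3HDM1 and for 5 and 8 peaks of R3HDM2.

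Peaks of the members recurred between replicates. In R3HDM1, 21 of 22 and 20 of 20 peaks had an overlapping partner in the other list, and in R3HDM2 22 of 22 and 24 of 24 had one, whereas 60.8% of all exonic peaks of replicate 1 and 64.6% of replicate 2 had one. Weak peaks are more common among all exonic peaks than in the members, and peaks of equal strength were not compared. The median distance to the nearest summit of the other replicate was 15.5 and 13 nt in R3HDM1 and 11 nt in both replicates of R3HDM2. In exon 21 of R3HDM2 the summit fell on base 97 in both replicates, in exon 22 on bases 55 and 56, and in exon 23 on bases 40 and 41. Other summits lay farther apart, by 104 nt in R3HDM2 exon 13, 74 nt in its exon 14 and 98 nt in R3HDM1 exon 3. The median distance over all exonic peaks is not given here. The R3HDM1 peak without a partner was a 33 bp peak in exon 5 of replicate 1, with a fold of 2.37 and a q of 1.

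Summits were found in 21 and 20 of the 27 R3HDM1 exons (77.8% and 74.1%) and in 22 and 24 of the 24 R3HDM2 exons (91.7% and 100%). Among all canonical exons of targets, 40.3% held a summit in replicate 1 and 39.7% in replicate 2. The R3HDM2 exons without a summit in replicate 1, exons 2 and 12, were themselves overlapped by peaks whose summits lay 2 nt and 1 nt beyond the exon edge. Those peaks, just outside the rule, had folds of 4.32 and 4.85. Just inside it was the replicate 2 peak on exon 12, with its summit on the last base of the exon and a fold of 2.89. Counting overlap in place of summits, each of the 24 R3HDM2 exons lay under a peak in both replicates, down to exon 12 of 32 nt and exon 4 of 42 nt.

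R3HDM1 differed in that some exons lay under no peak. Exons 4 (42 nt) and 17 (102 nt) were untouched in both replicates and exon 5 (90 nt) in replicate 2. In R3HDM1, 3 peaks in each replicate ran over neighbouring exons, over exons 8 and 9, 10 and 11, and 12 to 14, and no R3HDM2 peak did so. Edges of peaks on a single exon lay a median of 5 and 5.5 bases outside it in R3HDM1 and of 13 and 13.5 in R3HDM2. Edges inside the exon were counted as 0 bases. Some peaks ended well inside, such as those that covered 25.9% and 13.7% of R3HDM1 exon 15. No summit lay in an R3HDM1 intron in either replicate, and no peak lay over the gene of miR-128-1 (MIR128-1, chr2:135665397-135665478).

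Some untouched or covered exons are alternative in the annotation, a feature the choice of members did not use. These exons were singled out after their values were seen. Of the 8 coding R3HDM1 transcripts that span exon 17, only 1 includes it, and of the 8 that span exon 4, 3 include it. Exon 5 is in 4 of the 8 that span it. Exon 15 is matched exactly in 4 and overlapped in 5 of 8, yet had a summit in both replicates, with folds of 2.93 and 3.54. In the exon 11 pair, the exon in fewer annotated transcripts had the stronger peaks. Exon 11 of R3HDM1 is in all 7 coding transcripts that span it and had a summit in replicate 1 alone, with a fold of 4.19, while in replicate 2 it lay under a peak with its summit in exon 10. Exon 11 of R3HDM2 is matched exactly in 1 and overlapped in 2 of the 8 coding transcripts that span it, yet its folds were 6.80 (q = 9.78e-05) in replicate 1 and 5.59 (q = 0.00107) in replicate 2. It is not part of the readthrough transcript. Both exons have 96 nt and encode sequences of which 68.8% of residues were identical. The number of annotated transcripts is no measure of their levels in OE-19 cells.

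**Figure D2:**
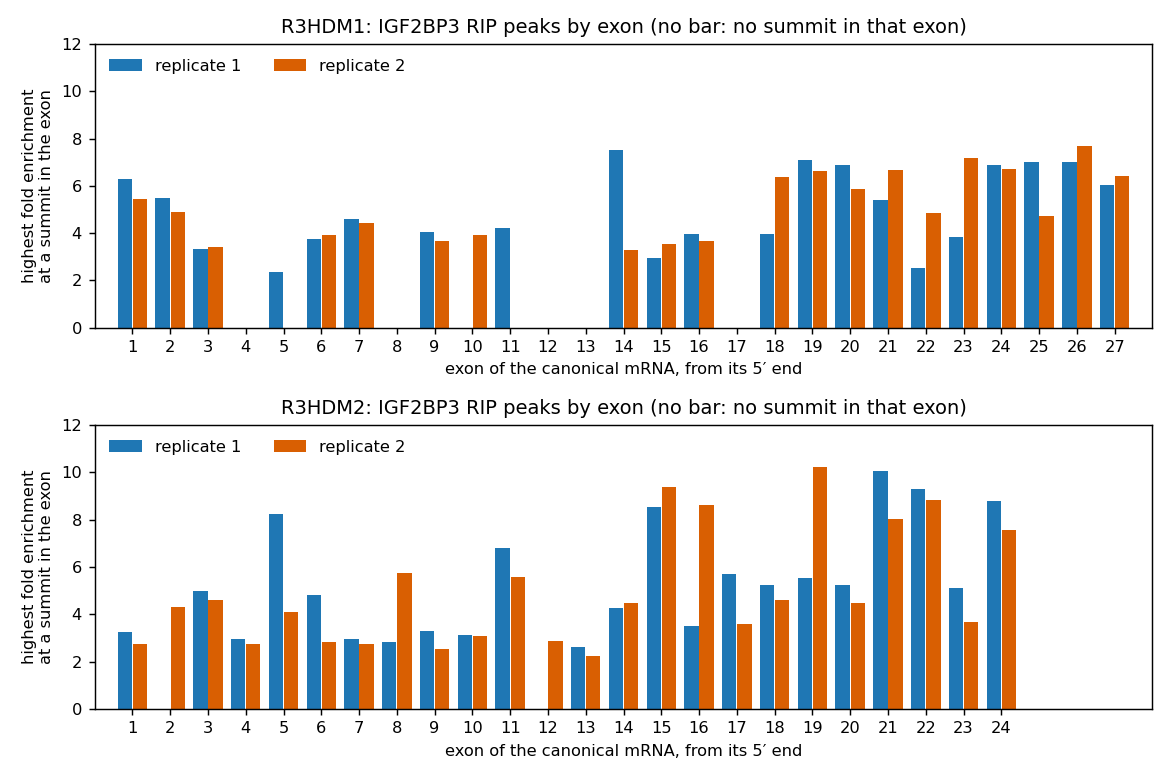
Bars give the highest fold enrichment among summits in each exon of the canonical mRNA, for replicates 1 and 2. In R3HDM1 the bars from exon 18 on are mostly above those of exons 3 to 16, and in R3HDM2 exons 15, 19, 21, 22 and 24 stand above the rest in at least 1 replicate.

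Most summits lay in the coding sequence, a share that was not computed here over all exonic peaks. In R3HDM1 these were 19 of 22 and 18 of 20 summits (86.4% and 90.0%), and in R3HDM2 21 of 22 and 22 of 24 (95.5% and 91.7%). The 5′ UTR held 2 summits of R3HDM1 in each replicate, where exon 1 had folds of 6.28 and 5.43 and exon 2 of 5.47 and 4.88. In the 5′ UTR of R3HDM2 there were 1 and 2 summits, and its exon 1 had folds of 3.24 and 2.75. The first exon was thus higher in R3HDM1 in both replicates. A 3′ UTR summit was found once, in R3HDM1 in replicate 1, 816 nt past the stop codon. The last exon, which holds the stop codon and the whole 3′ UTR in each gene, carried the widest peak, of 982 and 1310 bp in R3HDM1 and of 1338 and 1331 bp in R3HDM2. The summits of these wide peaks lay ahead of the stop codon, by 245 and 236 nt in R3HDM1 and by 168 and 169 nt in R3HDM2. The wide peaks covered 73.7% and 98.3% of the last exon in R3HDM1 and 99.1% and 98.6% in R3HDM2. The 3′ UTR bases under them were therefore counted with a coding summit.

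Along the coding sequence, split at its midpoint into a 5′ and a 3′ part, the folds were higher in the 3′ part of both mRNAs. In R3HDM1 the median fold at summits in the 5′ part was 3.96 in replicate 1 and 3.68 in replicate 2. In the 3′ part it was 6.46 and 6.51. R3HDM2 summits had medians of 3.31 and 3.07 in the 5′ part and of 5.62 and 7.55 in the 3′ part. Exon 15 of R3HDM2, with folds of 8.54 and 9.38, spans the midpoint. Its summit fell in the 3′ part in replicate 1 and in the 5′ part in replicate 2. With the whole of exon 15 placed in the 5′ part, the replicate 1 medians were 3.78 and 5.55. After the pattern had been seen in the members, the comparison by summit position was made for genes with at least 5 summits in each part. These were 702 genes in replicate 1 and 667 in replicate 2. The 3′ part had the higher median in 59.7% and 59.4% of them, with medians over genes of 3.08 and 3.13 for the 5′ part and of 3.22 and 3.24 for the 3′ part. A larger ratio of the 3′ to the 5′ median than in R3HDM1 was found in 1.71% of these genes in replicate 1 and in 0.3% in replicate 2. For R3HDM2 the shares were 1.42% and 0%, the former with the summit of exon 15 counted in the 3′ part. Each part of a member held 8 to 13 summits, and peaks on one mRNA are not independent. R3HDM2 was also chosen by its highest fold, which lay in the 3′ part in both replicates. That choice favours a high ratio, so these shares are descriptions and measure no chance.

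**Figure D3:**
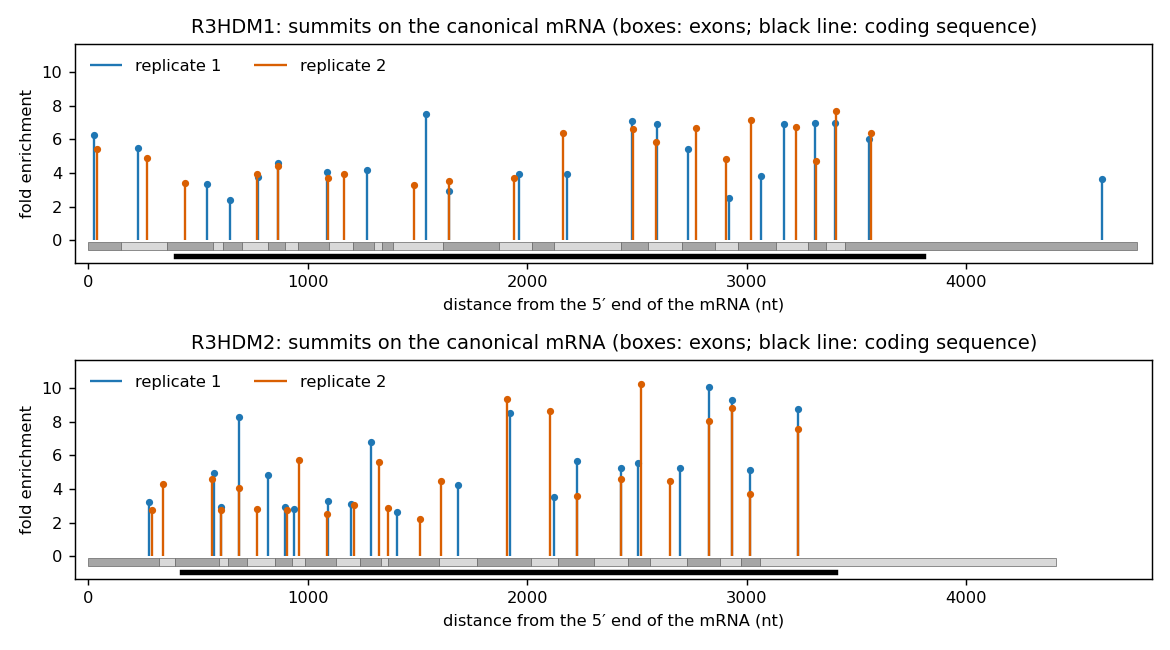
Summits are drawn as lines along the canonical mRNA, by distance from its 5′ end in nt, with the height of a line giving the fold enrichment in replicate 1 or 2. Boxes are exons and the black bar is the coding sequence. Folds above 6 lie mainly in the 3′ part of the coding sequence, and past the stop codon there is 1 summit in R3HDM1 and none in R3HDM2.

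Comparing the paralogs exon by exon, 18 of the 22 pairs had a summit in both genes in replicate 1 and 17 in replicate 2, and 16 pairs had all 4 values. R3HDM2 was not higher throughout. Its highest log2 fold exceeded that of R3HDM1 in 11 of 18 pairs in replicate 1 and in 8 of 17 in replicate 2. The mean difference, R3HDM2 minus R3HDM1, was 0.20 in replicate 1 and −0.09 in replicate 2, or 0.05 ± 0.20 on the log2 scale (SD, n = 2), so that the sign turned with the replicate and the mean was smaller than the spread. Of the 16 pairs with all values, R3HDM2 was above R3HDM1 in 7 without overlap of the replicates, R3HDM1 was above R3HDM2 in 6, and in 3 the values overlapped. With 2 values per gene such separation can arise by chance, and its share in exon pairs of other genes was not computed.

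The pairs in which R3HDM2 was higher included the exons of its highest folds. R3HDM2 exon 19 had folds of 5.55 in replicate 1 and 10.2 in replicate 2, and its partner, R3HDM1 exon 22, had 2.52 and 4.85. Although the replicates of each exon differed about as much as the genes did, the difference between the genes was 1.14 and 1.08 on the log2 scale, nearly the same in each replicate. By the mean of the replicates, 1.11, it was the largest difference of the 16 pairs, although in replicate 1 R3HDM1 exon 14 and R3HDM2 exon 13 differed more (−1.52). R3HDM2 exon 15 had 8.54 and 9.38 against 3.96 and 6.36 in R3HDM1 exon 18. R3HDM2 exon 22 had 9.29 and 8.84, close to each other, against 6.99 and 4.73 in R3HDM1 exon 25. For R3HDM2 exon 21 the folds were 10.1 and 8.04 against 6.89 and 6.72 in R3HDM1 exon 24. In the last exons they were 8.77 and 7.55 in R3HDM2 exon 24 and 6.02 and 6.40 in R3HDM1 exon 27. The other pairs of this kind were 3 with 3 and 16 with 14 (R3HDM1 exon first), with mean log2 differences of 0.50 and 0.19.

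The pairs in which R3HDM1 was higher lay between its exons 7 and 26. Its exon 26 had folds of 6.99 and 7.67, the highest mean of its exons, against 5.11 and 3.68 in R3HDM2 exon 23. Exon 7 had 4.60 and 4.43 in R3HDM1 and 2.95 and 2.75 in R3HDM2. Here the replicates of each gene nearly coincided, and the mean log2 difference was −0.66. R3HDM1 exon 14 had 7.51 in replicate 1 but 3.28 in replicate 2, against 2.62 and 2.21 in R3HDM2 exon 13, so the size of this difference rests on replicate 1. The remaining pairs, R3HDM1 exons 9, 20 and 21 with R3HDM2 exons 9, 17 and 18, had mean log2 differences of −0.41, −0.49 and −0.29. In the pairs 6 with 6, 19 with 16 and 23 with 20 the sign turned between replicates.

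**Figure D4:**
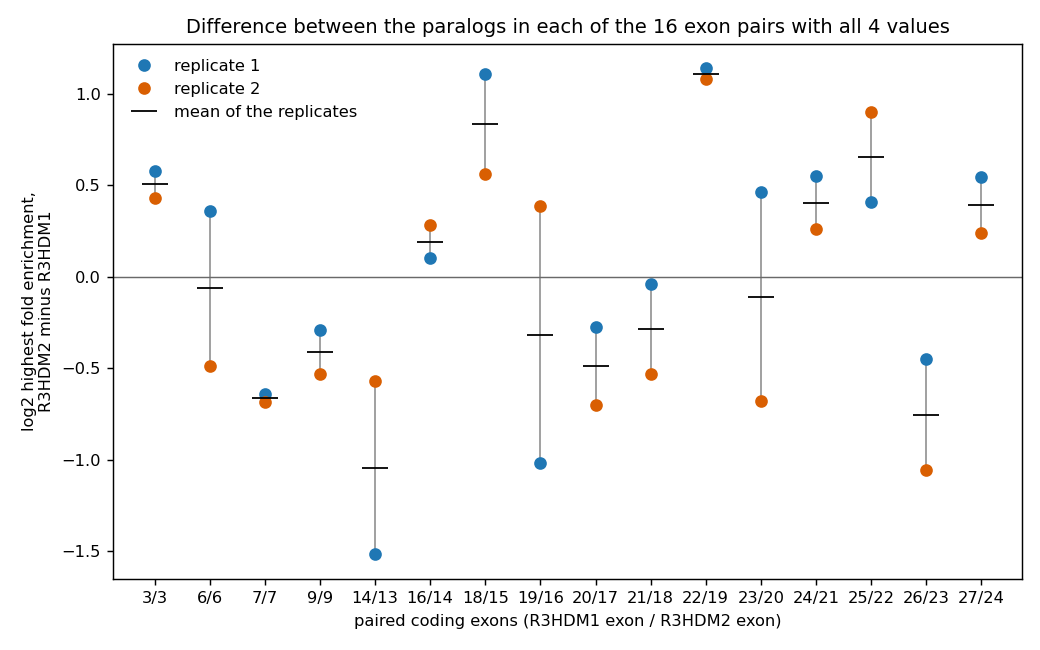
Points give, for each of the 16 exon pairs with all 4 values, the log2 highest fold of R3HDM2 minus that of R3HDM1 in replicates 1 and 2, with the mean of the replicates as a dash and a line joining them. Pair 22/19 lies highest (1.11), pair 14/13 lowest (−1.04), and in 3 pairs the replicates lie on different sides of 0.

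The spread between replicates sets how far single exons can be read. Among 19 R3HDM1 exons with a summit in both replicates, the median absolute difference of the replicates was 0.16 on the log2 scale and 4 exons differed by 1.5-fold or more. Among 22 R3HDM2 exons it was 0.24, and 6 exons did so. Between the paralogs, the median absolute difference over the 16 pairs was 0.45 and 6 pairs differed by 1.5-fold or more. These differences between paralogs are means over the replicates, unlike the differences of single values between replicates, and cover another set of exons. The widest gaps between replicates in R3HDM2 were in exon 16 (3.50 and 8.64), exon 8 (2.81 and 5.74) and exon 5 (8.26 and 4.08). Across exons, Pearson's r of the log2 folds of the replicates was 0.414 in R3HDM1 (n = 19) and 0.656 in R3HDM2 (n = 22). Between paired exons of the paralogs r was −0.0712 in replicate 1 (n = 18) and 0.506 in replicate 2 (n = 17). These correlations are descriptions over exons that share libraries and transcripts. Folds take repeated values (exons 20 and 24 of R3HDM1 both had 6.89 in replicate 1, exons 25 and 26 both 6.99), and read depth is unknown.

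Residue identity of the paired exons ranged from 24.5% to 96.3%, with a median of 55.7%. The most alike pairs were not those with the highest folds. In the 3 pairs with at least 80% identical residues, which are exons 7, 8 and 9 of both genes and include the R3H signature, the folds lay between 2.54 and 5.74. All 3 lie in the 5′ part of the coding sequence, where folds were lower in both genes. Identity and position therefore cannot be told apart here. R3HDM1 exon 8 had no summit in either replicate, although peaks with summits in exon 9 ran over it. The pairs 24 with 21 and 22 with 19, where R3HDM2 had its highest fold in replicates 1 and 2, had 43.8% and 51.5% identical residues. By the mean of the replicates the highest pairs were 25 with 22 for R3HDM2 and 26 with 23 for R3HDM1. Both had 64.3% identical residues, above the median.

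The readthrough gene shares the exons with the highest R3HDM2 folds, and reads on them cannot be told apart. It has 1 annotated transcript, of 15 exons, and 13 of these overlap R3HDM2 exons, 12 with identical coordinates. In each replicate 13 R3HDM2 summits lay in readthrough exons. The remaining 9 and 11 summits belonged to R3HDM2 alone, with highest folds of 8.77 and 7.55, both in exon 24. On this basis the mean highest fold was 8.16 in R3HDM2 against 7.59 in R3HDM1. The 2 readthrough exons outside R3HDM2, which lie in STAC3, held no summit in either replicate, and STAC3 itself, a gene of skeletal muscle excitation-contraction coupling, had 0 exonic peaks in both.

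Sequence words linked to IGF2BP proteins or m6A were counted in windows reaching 50 nt to either side of each summit on the mRNA, on the sense strand. GGAC was present in 13 of 22 and 14 of 24 R3HDM2 windows (59.1% and 58.3%) and in 8 of 21 and 6 of 19 R3HDM1 windows (38.1% and 31.6%), compared with 32.0% of all summit windows on mRNAs in each replicate. The R3HDM2 mRNA is itself rich in GGAC. It held 26, or 5.89 per kb, against 15, or 3.14 per kb, in R3HDM1 and a target median of 3.21 per kb, and 50.5% of all windows placed along the R3HDM2 coding sequence contained it, against 25.5% in R3HDM1. TGGAC, the DNA form of UGGAC, contains GGAC and was present in 4 and 5 R3HDM2 windows (18.2% and 20.8%) and in 3 and 2 R3HDM1 windows (14.3% and 10.5%), with a share of 12.9% in all summit windows of each replicate. Of all windows along the coding sequence, 23% contained it in R3HDM2 and 12.5% in R3HDM1, so that its share at R3HDM2 summits was not above that of the R3HDM2 coding sequence. The general m6A consensus (A, G or T, then A or G, then AC, then A, C or T) was in 17 of 22 and 20 of 24 R3HDM2 windows and in 19 of 21 and 19 of 19 R3HDM1 windows, and in 87.3% and 87.7% of all. CACTC was in 2 windows of each gene in each replicate. These were 9.5% and 10.5% of windows in R3HDM1 and 9.1% and 8.3% in R3HDM2, near the 8.7% and 8.3% of all summit windows. These matches describe letters only, since m6A was not measured in these lists.

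Other genes with an R3H domain or an R3HD symbol had fewer peaks than R3HDM1 and R3HDM2, and lower highest folds. Of a list of 10, 4 had an exonic summit in both replicates, 1 in one replicate and 5 in neither, beside the 28% of all protein-coding genes with summits in both. A fold of at least 5 in both replicates was reached by 0 of the 10 and by 2.35% of all protein-coding genes, and a q of at most 0.05 in both by 0 and by 4.93%, so these counts do not set the list apart from other genes. PARN, a poly(A)-specific ribonuclease, came closest with 12 and 8 peaks and highest folds of 3.69 and 3.33. NFX1, a zinc finger protein that binds the X box of MHC class II promoters, had 7 and 12 peaks with highest folds of 3.35 and 2.78. R3HCC1L had 1 and 3 peaks with highest folds of 2.29 and 2.85, and the helicase IGHMBP2 3 and 1 peaks with 2.48 and 2.53. NFXL1 had 1 peak, in replicate 1, with a fold of 2.93. ARPP21, which is closely related to R3HDM1 and R3HDM2 and is known from neurons, had none, nor did R3HDM4, R3HCC1, R3HDML and SPAG7. RNA levels of these genes in OE-19 cells were not measured in the lists, and the part of RNA level in a missing peak was not tested.

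Among all targets, the genes most like each member were sought by the highest fold and the peaks per kb in both replicates, with distances in units of SD on the log2 scale. Nearest to R3HDM1 were SH3RF2 (0.211), UBE4B (0.328), both ubiquitin ligases, and the corepressor NCOR1 (0.33). SH3RF2 had highest folds of 7.26 and 7.70 and 3.99 and 4.33 peaks per kb. Nearest to R3HDM2 were SEC24B (0.299), a subunit of the COPII vesicle coat, the overlapping readthrough gene (0.3) and EIF4G3 (0.604), a translation initiation scaffold. SEC24B had highest folds of 10.8 and 9.77 and 4.92 and 5.12 peaks per kb. The paralogs lay 1.44 apart, and R3HDM1 was the 21st nearest gene to R3HDM2 whereas R3HDM2 was the 185th nearest to R3HDM1.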

How the data were processed

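RNA of 2 IGF2BP3 RIP and 2 input samples of OE-19 cells was sequenced. The methods of the study name Tophat2 for mapping to hg38 and MACS2 for peak calling, whereas the submitters' processing notes name fastp, HISAT2 and MACS2. Versions, and the library used as the caller's control, are not given in the sources used here. The authors called peaks in each RIP sample separately and deposited 44622 and 42723 peaks. The deposited fold enrichment is a ratio, pileup over local background. Each peak also has a deposited −log10 p and a corrected −log10 q from the caller, and the deposited score is the whole part of 10 times the −log10 p. The lists carry no strand and no read depth, so no counting interval was computed. Nothing in the labels says that replicates came from separate cultures.

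Summits were assigned to GENCODE 44 exons, and a fold in an exon is the highest among its summits. Canonical transcripts (MANE Select for both members) gave exon numbers. Printed exons were read from the GENCODE transcripts, and 16 of 16 exons compared matched the GRCh38 genome. Coding exons were paired by global alignment of translated sequences (BLOSUM matrix, gap penalties −11 and −1). The genes named are the members, an R3H list, genes under member summits and the 3 targets nearest to each member, besides STAC3 and MIR128-1, added later. The members and lists were chosen with earlier results of these data known. Alternatives were limits on q and fold, other peak assignments, overlaps and transcripts, nucleotide pairing, and leaving out a replicate. The scripts were tested on simulated data. Tools were Biopython 1.88, matplotlib 3.10.9, pandas 2.3.3, scipy 1.17.1 and numpy 2.4.6 under Python 3.11.15.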

Additional observations from a re-analysis of the deposited data

How the results depend on the processing

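Values are means of the replicates, R3HDM1 first. The numbers of peaks (21 and 23) became 13 and 11.5 when q was limited to 0.05, 9.5 and 9.5 for folds of at least 5, and 6.5 and 5 when −log10 q had to reach 5. Under these limits peaks per kb became 2.72 and 2.61, 1.99 and 2.15, and 1.36 and 1.13, so that R3HDM2 was no longer ahead under either limit on q. Coding summits per kb of coding length were 5.43 and 7.23. Shares of peaks that overlap the other replicate (97.7% and 100%) fell to 85.9% and 91.3% with 50% of both peaks, 90.7% and 95.6% with summits within 100 nt, 78.8% and 70.8% with the q limit, 73.9% and 64.8% with the fold limit and 46.4% and 60.0% with the −log10 q limit. Shares over all exonic peaks under these settings are not given here. The coding share of summits in R3HDM1 was 84.2% with the q limit and 84.4% with the fold limit, and in R3HDM2 it was 100% under both and with the longest coding transcript. The highest fold was 7.39 in R3HDM1 when peaks were assigned by their midpoint, and 8.16 in R3HDM2 without exons of another gene. Pairs with a summit in both genes fell from 17.5 to 6.5 with the q limit and to 5 with the fold limit. The mean paired difference in −log10 p was 0.25, on a scale of its own. It was 0.05 in log2 fold, and left to 1 replicate it ranged from −0.0858 to 0.20, the sign turning without replicate 1.

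Leaving out a replicate gave 20 to 22 and 22 to 24 peaks, 4.18 to 4.60 and 4.99 to 5.44 peaks per kb, highest folds of 7.51 to 7.67 and 10.1 to 10.2, coding shares of 86.4% to 90.0% and 91.7% to 95.5%, and 17 to 18 pairs. Another 14 values under alternatives stayed within the spread between replicates or, for counts, within 1.5 times the main count. The cause of these changes was not tested. No paired analysis was possible because no result comes from a test and the input samples were not analysed here. With 2 lists, unknown depth and an unstated control, a fold cannot be separated from the caller's local background, and RNA level was not measured.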
